A study of Mus musculus with 5 samples.

Results

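Isl1, Isl2, Lhx1, Lhx3, Lhx4 and Lhx5, which encode LIM-homeodomain transcription factors, and Ldb1 and Lmo4, which encode their partner proteins, were followed from mouse embryonic stem cells to motor neuron (MN) cultures. They were chosen by gene symbol, as every probe on the array whose RefSeq accession belongs to one of them. This gave 8 genes out of 19893 that could be named on the array and 9 probes out of 55681. Lmo4 had 2 probes and each of the other genes had 1. Gene coordinates are those of RefSeq on the mouse build GRCm38.p6, and where in each gene a probe lies was not analysed here.

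LIM-homeodomain factors carry a pair of zinc-binding LIM domains, which contact other proteins, and a homeodomain, which contacts DNA. Ldb1 forms dimers that bridge LIM domains, and in newborn spinal MNs Isl1, Lhx3 and Ldb1 assemble into a complex that switches on MN genes, whereas Lhx3 with Ldb1 but without Isl1 is the form used in V2 interneurons. Lmo4 consists of LIM domains without a homeodomain and competes for Ldb1. Different sets of these factors later mark the motor columns, and Lhx1 and Lhx5 are also expressed in several classes of spinal interneuron.

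Total RNA was measured on 1 one-colour array at each of 5 time points, all in wild-type male cells. The ES sample was undifferentiated embryonic stem (ES) cells. The others were embryoid bodies, free-floating aggregates of differentiating ES cells: Day2 after 8 hours of retinoic acid (RA), Day3 after 1 day, Day4 after 2 days and Day7 after 5 days, which the labels also call MN. RA and Shh are said to have been given between day 2 and day 5, the study's scheme naming a smoothened agonist (SAG) as the Shh signal, whereas the Day7 label gives 5 days of RA. The labels name no sorting of cells, and each time point was a single sample, so there was no spread between replicates, no test was possible and no p-value is given. In such bulk RNA, fewer cells of a type and less RNA per cell cannot be told apart.

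Levels below are log2 signals after quantile normalization, which gives all 5 arrays the same distribution of values. Changes are differences of these log2 levels. "Rose" and "fell" are used of changes of at least 2-fold, a fixed rule of size and not a test. A probe not well above background, by the scanner software's flag, has only an upper bound there, and a change against it is given as "at least". That bound is the higher of the probe's own value and the dimmest value among well-detected probes on the same array, which was 4.18 for ES, 2.60 for Day2, 5.22 for Day3, 4.05 for Day4 and 4.66 for Day7. Levels of different probes are not compared, since brightness differs between probes.

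The Day2 array had 86.7% of its probes well above background, against 57.5% to 65.7% on the other 4. The Day7 array was on another slide than the other 4, and for Day7 the slide and the day cannot be told apart. No spot was saturated (0%). For probes printed in several spots, the median standard deviation (SD) between spots of 1 array was 0.06 to 0.11 on the log2 scale over 432 probes, which covers error within an array and not between cultures.

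Isl1 (chr13:116298270-116309688), the factor that marks postmitotic MNs and is required for them to form, had the widest span of the members measured above background on all 5 arrays. Its level was 7.18 in ES cells, 5.94 at Day2, 5.34 at Day3, 8.19 at Day4 and 13.25 at Day7. Day7 thus stood alone at the top, and Day3 was lowest. Isl1 rose 7.20-fold from Day3 to Day4 and 33.3-fold from Day4 to Day7, which left it 66.9-fold above ES. The change from Day3 to Day4, 2.85 on the log2 scale, ran from 1.72 after normexp background correction to 3.26 with the deposited values. The Day3 level was close to the bound for that array, and its part in this range was not tested. Its Day4 level was just 2.01-fold above ES. Isl1 RNA is also found in sensory neurons, heart, pancreas and pituitary, whose markers are given below.

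The Isl1 probe was printed in 10 spots, so its error within an array can be seen directly. Before normalization between arrays, the spots had a mean intensity of 154 ± 11.2 on ES (SD, n = 10 spots), 154 ± 37.4 on Day2 (n = 10), 24.1 ± 2.54 on Day3 (n = 8, with 2 outlier spots left out), 169 ± 9.21 on Day4 (n = 10) and 12125 ± 577 on Day7 (n = 10). The Day7 spots ranged from 11273 to 13235 and overlapped those of no other array, while the ES, Day2 and Day4 spots overlapped. On Day3 only 4 of the 8 spots were well above background. The fall of 2.37-fold from ES to Day2 on the normalized scale was therefore not present in the unnormalized spots, whose means were equal to 3 digits.

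**Figure D1:**
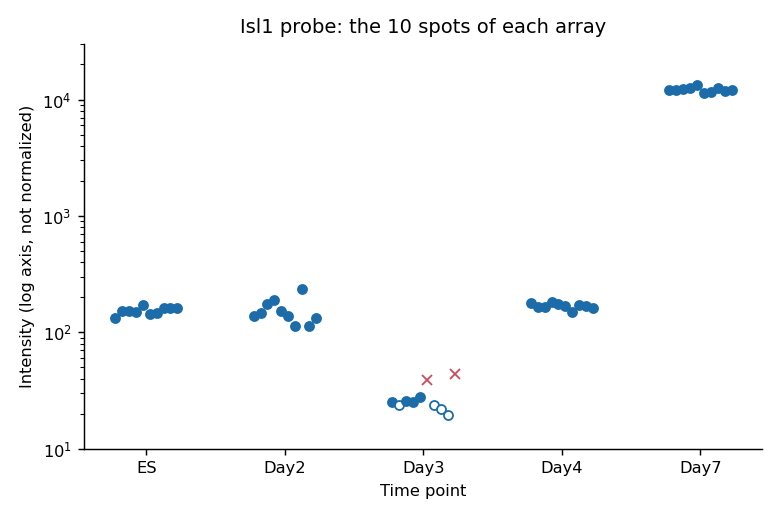
Intensity of each spot of the Isl1 probe before normalization between arrays (log axis) at the 5 time points, with 10 spots per array. Open circles are spots not well above background and red crosses are the 2 outlier spots left out on Day3. The Day7 spots, at 11273 or more, lie far above all others, and the Day3 spots are the lowest.

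Isl2 (chr9:55538677-55547667), the close relative of Isl1 that is also expressed in postmitotic MNs, climbed late. Its level was 7.18 in ES cells, 7.29 at Day2, 7.86 at Day3, 8.37 at Day4 and 12.55 at Day7. The first 4 values differed by less than 2-fold from each neighbour in time, with changes of 0.11, 0.57 and 0.51. From Day4 to Day7 Isl2 rose 18.2-fold, and its Day7 level was 41.6-fold above ES. Unlike Isl1, which was lower on Day3 than on ES by 1.84 on the log2 scale, Isl2 was 0.68 higher, a change under 2-fold.

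Lhx3 (chr2:26200212-26208249), which acts with Isl1 in MNs and is also a V2 interneuron factor, dipped and recovered. Its level was 8.99 in ES cells, 9.37 at Day2, 7.10 at Day3, 9.50 at Day4 and 11.27 at Day7. It fell 4.85-fold from Day2 to Day3, rose 5.27-fold from Day3 to Day4 and rose a further 3.41-fold to Day7. Day4 was 0.51 above ES, a change under 2-fold, and Day7 was 4.85-fold above ES. Its Day3 minimum was also seen without normalization, where the probe read 567 in ES cells, 896 at Day2, 95.2 at Day3, 419 at Day4 and 3426 at Day7.

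Lhx4 (chr1:155698031-155751726), the paralog of Lhx3 that acts beside it in early MNs, was not detected on every array. It was not well above background on ES, at 2.05, nor on Day3, at 3.33. It was well above background on Day2, at 3.82, on Day4, at 6.89, and on Day7, at 10.65. The Day2 value lies below the dimmest well-detected probes of ES and Day3, so no fold can be given for the steps into and out of Day2. Lhx4 rose at least 3.19-fold from Day3 to Day4, 13.5-fold from Day4 to Day7 and at least 88.6-fold from ES to Day7. That last bound, 6.47 on the log2 scale, was 4.42 after normexp background correction. The same probe before normalization read 6.58, 57.9, 5.42, 65.7 and 2272 in order of time, the ES and Day3 readings not being well above background.

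Lhx1 (chr11:84517975-84525534), which marks the lateral division of the limb-innervating motor column and several interneuron classes, ran the other way after Day4. Its level was 6.55 in ES cells, 7.29 at Day2, 7.83 at Day3, 7.89 at Day4 and 6.44 at Day7. Day3 and Day4 were nearly equal, 0.06 apart, and Day7 was back within 0.11 of ES. Lhx1 rose 2.43-fold from ES to Day3 and stood 2.53-fold above ES on Day4, then fell 2.73-fold from Day4 to Day7. The day of its peak depended on the scaling, since the probe before normalization read 96.4 in ES cells, 281 at Day2, 165 at Day3, 135 at Day4 and 108 at Day7, highest on Day2.

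Lhx5 (chr5:120431886-120441457), an interneuron factor related to Lhx1, did not follow it. Its level was 6.18 in ES cells, 4.43 at Day2, 4.92 at Day3, where it was not well above background, 5.31 at Day4 and 7.40 at Day7. Lhx5 fell 3.37-fold from ES to Day2 on the normalized scale, but the change was 0.033 in the other direction without normalization between arrays. It rose 4.25-fold from Day4 to Day7, the step in which Lhx1 fell, and its Day7 level was 2.32-fold above ES.

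Ldb1 (chr19:46031525-46048145), the bridging cofactor, was well detected throughout. Its level was 11.44 in ES cells, 11.55 at Day2, 12.09 at Day3, 12.73 at Day4 and 11.75 at Day7. No single step reached 2-fold, and Day4 was 2.44-fold above ES. This rise rested on the scaling: without normalization the change from ES to Day4 was 0.088 and the probe read 3504, 3738, 3475, 3723 and 4660 in order of time. The change from ES to Day2 was 0.11, and -0.14 when arrays were aligned on their 75th percentile. The change from Day4 to Day7 was -0.98, just short of 2-fold, and it was 0.32 without normalization between arrays. Day7 differed from ES by 0.31.

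Lmo4 (chr3:144188530-144205255), the LIM-only competitor for Ldb1, was well detected on every array. Its brighter probe read 13.37 in ES cells, 13.48 at Day2, 12.56 at Day3, 12.77 at Day4 and 13.57 at Day7. No step reached 2-fold after quantile normalization, the widest being -0.92 from Day2 to Day3. Before normalization the probe read 15413 in ES cells, 15039 at Day2, 4807 at Day3, 3864 at Day4 and 14813 at Day7, with changes of -1.65 from Day2 to Day3 and 1.94 from Day4 to Day7. The change from ES to Day4 was -0.60 in the main setting, -1.04 when arrays were aligned on their 75th percentile and -1.996 without normalization, past 2-fold in 3 of 11 settings. The second probe read 10.75, 11.26, 10.98, 11.10 and 11.26 in the same order. It changed by -0.28 from Day2 to Day3 and by 0.35 from ES to Day4, against -0.92 and -0.60 on the brighter probe, so the probes differed over both spans. From ES to Day7 the brighter probe changed by 0.20, and by -0.42 after the alignment on the 75th percentile, so its direction over the whole course depended on the scaling.

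**Figure D2:**
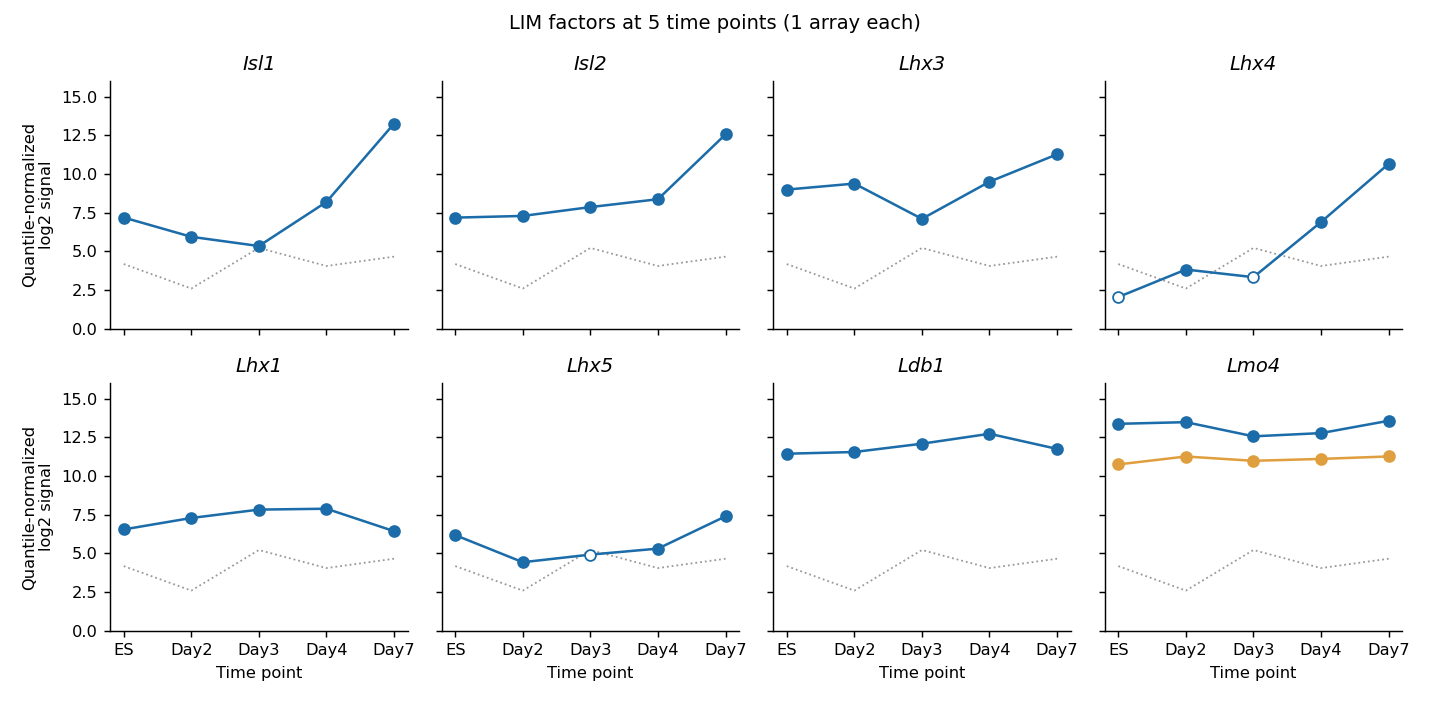
Quantile-normalized log2 signal of each of the 8 genes at the 5 time points, 1 array each. Filled points are well above background, open points are not, the dotted grey line is the dimmest value of well-detected probes on each array and the orange line is the second Lmo4 probe. Isl1, Isl2, Lhx3, Lhx4 and Lhx5 are highest on Day7, Lhx1 and Ldb1 are highest on Day4 on this scale but on Day2 and Day7 without normalization, and Lmo4 stays between 12.56 and 13.57 on its brighter probe.

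The counts of members that moved are given step by step, from the last. From Day4 to Day7, 5 of the 8 rose (Isl1, Isl2, Lhx3, Lhx4 and Lhx5) and Lhx1 fell, against 18.1% of 16078 genes with a value that rose and 18.1% that fell. The members' median change was 1.93 and that of all genes was -0.12. This step, like the span from ES to Day7, crosses slides. The changes of Isl1, at 5.06, Isl2, at 4.19, and Lhx4, at 3.76, were above the 95th percentile of all genes, 2.88, while those of Lhx5, at 2.09, and Lhx3, at 1.77, were below it.

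From Day3 to Day4, 3 members rose (Isl1, Lhx3 and Lhx4) and none (0) fell, against 3.62% of all genes that rose and 4.86% that fell. The 3 that rose exceeded the 95th percentile of all genes in that step, 0.78. Isl2, which rises with Isl1 later, changed by 0.51 here. The members' median was 0.58 against -0.01 for all genes.

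The counts of the earlier steps depended on the scaling. From ES to Day2 Isl1 and Lhx5 fell and none rose, against 11.3% of genes that fell and 10.7% that rose. From Day2 to Day3 Lhx3 fell and none rose, against 7.76% and 13% of genes. The medians of the members in these steps were 0.11 and 0, and those of all genes were 0 in both. With the arrays aligned on their 75th percentile, and likewise without normalization, 2 members rose over the first of these steps and none (0) fell. Over the second, 3 members fell with that alignment and 5 without normalization. The counts of all genes moved too. Over the first step 1965 genes rose in the main setting, 3831 with that alignment and 4545 without normalization, while 2069, 1284 and 779 fell. Over the second, 1420, 3119 and 7216 genes fell in the same order of settings.

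Over the whole course from ES to Day7, 5 members rose and none fell, against 24.8% of genes that rose and 24.4% that fell, with medians of 1.75 for the members and -0.07 for all genes. Comparisons that leave out the Day2 array were added after the data had been seen. From ES to Day3 Lhx1 rose while Isl1 and Lhx3 fell, of 7 members with a value, against 15.6% of genes that rose and 10.2% that fell. This count depended on the setting: Lhx3 passed in 11 of 11 settings, Isl1 in 10 of 11 and Lhx1 in 9 of 11, while Lhx5 was past 2-fold lower in 6 of 10 and Lmo4 in 3 of 11. From ES to Day4, within 1 slide, Isl1, Isl2, Lhx1, Lhx4 and Ldb1 rose and none fell, against 17% and 14.4% of genes.

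**Figure D3:**
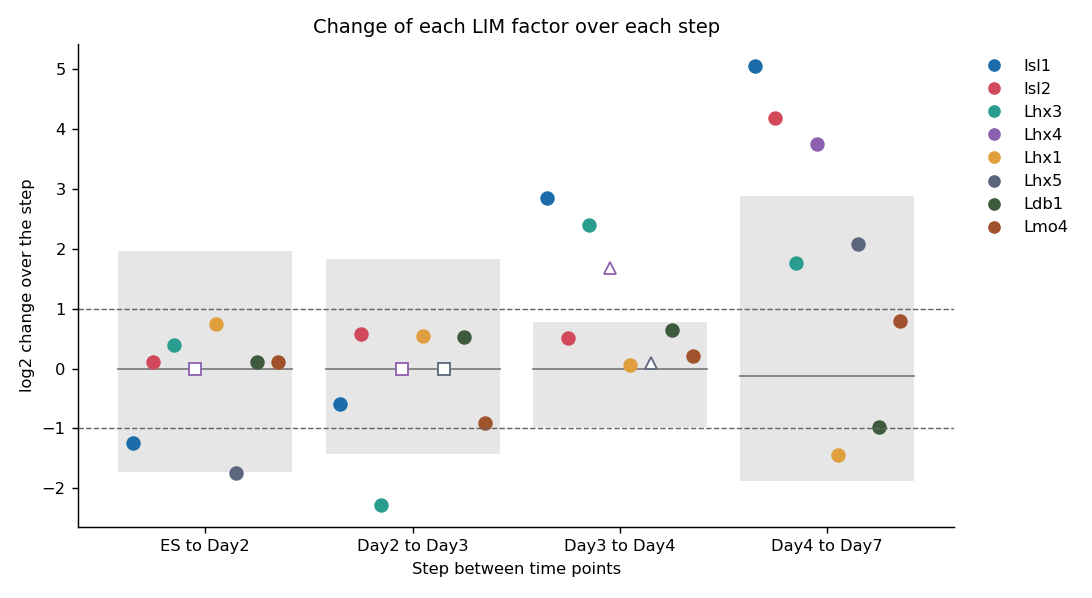
Log2 change of each gene over each of the 4 steps. The grey band spans the 5th to the 95th percentile of all genes with a value and its line is their median, dashed lines mark 2-fold, open triangles are lower bounds and open squares are genes with no fold. In the last step Isl1, Isl2 and Lhx4 lie above the band, and without normalization between arrays the Ldb1 change there turns from -0.98 to 0.32.

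The late changes past 2-fold kept their direction under the processing settings tried. From Day4 to Day7 the rise passed 2-fold in 10 of 10 settings for Isl1 (changes of 4.73 to 6.17), Isl2 (3.75 to 5.36), Lhx3 (1.62 to 3.03), Lhx4 (3.22 to 5.11) and Lhx5 (1.18 to 3.45). The fall of Lhx1 passed in 9 of 10 and was -0.32 without normalization between arrays. From Day3 to Day4 the rise passed in 11 of 11 settings for Isl1 (1.72 to 3.26) and Lhx3 (1.88 to 2.59) and in 10 of 10 for Lhx4 (1.11 to 3.56), and the Lhx3 fall from Day2 to Day3 passed in 10 of 10. From ES to Day7 the rise of Isl1, Isl2 and Lhx3 passed in 10 of 10 settings and that of Lhx4 in 9 of 9, while that of Lhx5 passed in 9 of 10 and was 0.81 after normexp background correction. From ES to Day4 Isl1 passed in 8 of 11 settings, Isl2 and Lhx1 in 9 of 11, Ldb1 in 10 of 11 and Lhx4 in 10 of 10. The falls from ES to Day2 were less firm: Isl1 and Lhx5 each passed in 6 of 10 settings, and alignment of the arrays on their 75th percentile left neither past 2-fold. In that step 48.7% of the genes past 2-fold were higher after quantile normalization and 74.9% after that alignment, and over the next step these shares were 62.6% and 25.5%.

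**Figure D4:**
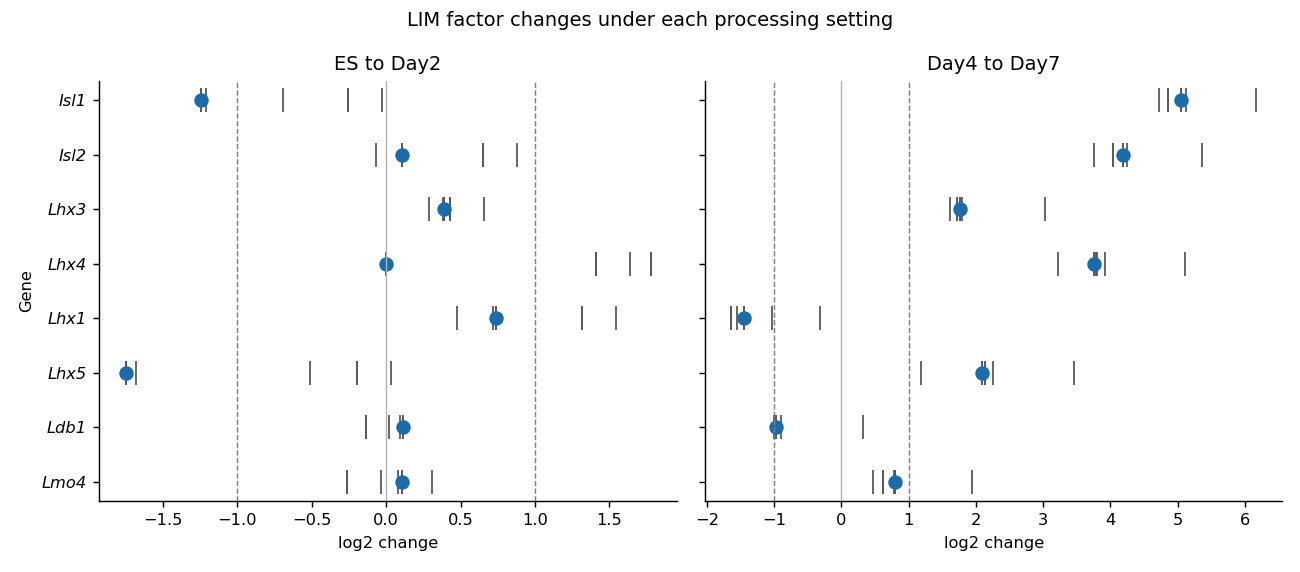
Log2 change of each gene from ES to Day2 and from Day4 to Day7 under the main setting (dots) and each alternative (ticks), with dashed lines at 2-fold. From Day4 to Day7 every tick of Isl1, Isl2, Lhx3, Lhx4 and Lhx5 lies past 2-fold, whereas from ES to Day2 the ticks of Isl1 and Lhx5 straddle the 2-fold line and 1 Lhx5 tick lies at 0.033.

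Other genes of the LIM network were read from lists chosen for their function. Of 6 other LIM-homeodomain genes on the array (Lhx2, Lhx6, Lhx8, Lhx9, Lmx1a and Lmx1b), 4 had a value from ES to Day7 and none (0) rose or fell, beside the 24.8% and 24.4% of all genes. Lhx2 was just short of 2-fold lower, with a change of -0.99, and passed in 2 of 5 scalings. Lhx8 was well above background on no array and Lhx9 only on Day2. Of the LIM-only genes, Lmo1 rose 13.6-fold, from 7.47 to 11.24, and Lmo3 rose at least 27.5-fold to 9.69, while Lmo2 changed by 0.17. From Day4 to Day7 all 3 rose, against 18.1% of all genes, and Lmo4 changed by 0.80 over that step.

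The remaining cofactors moved unevenly. Ldb2, the paralog of Ldb1, was at 7.48 on ES, 4.93 on Day4 and 8.86 on Day7, a rise of 15.3-fold over the last step and of 2.61-fold from ES to Day7. Ssbp3, one of the single-stranded DNA-binding proteins that stabilise Ldb proteins, rose 2.30-fold from ES to Day7, a change of 1.20 that was 0.46 in the lowest of 5 scalings. Ssbp2 and Ssbp4 changed by 0.57 and 0.66. Rlim, the ubiquitin ligase that marks Ldb1 for destruction, was at 10.55 on ES, 9.50 on Day4 and 8.45 on Day7, a fall of 4.30-fold over the whole course. Its change of -1.05 from Day4 to Day7 was 0.24 without normalization between arrays.

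**Figure D5:**
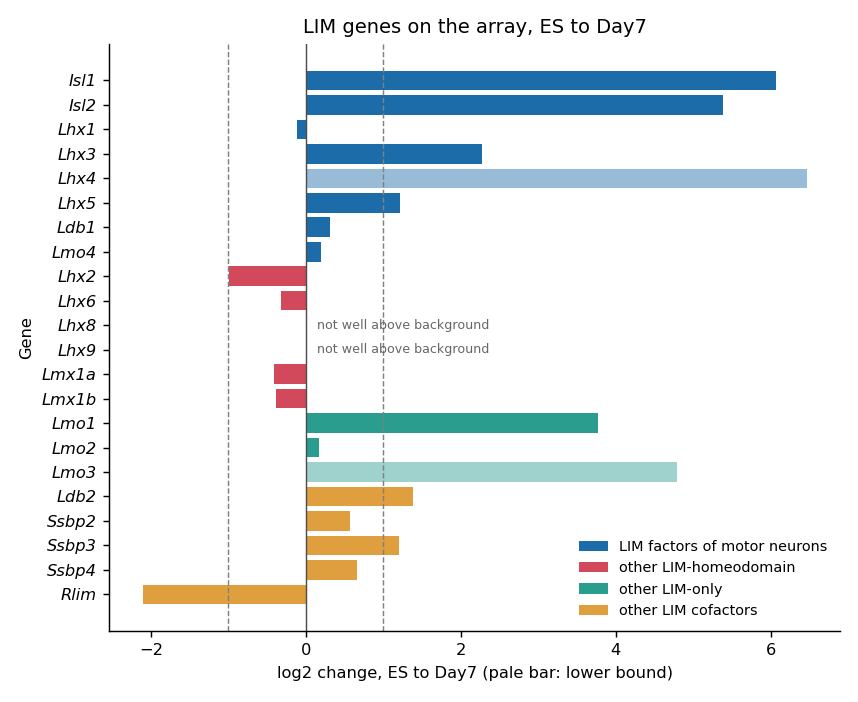
Log2 change from ES to Day7 of the 8 LIM factors (blue) and of other LIM-homeodomain (red), LIM-only (green) and cofactor (orange) genes on the array. Pale bars are lower bounds, dashed lines mark 2-fold and Lhx8 and Lhx9 were not well above background on either array. Isl1, Isl2 and Lhx4 have the longest bars, Rlim falls, and the short Lmo4 and Lhx1 bars change sign with the scaling.

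Genes of the MN programme around these factors also moved in the last 2 steps. Of the progenitor and onset genes, Olig2, which specifies MN progenitors, already read 10.34 in ES cells. Its Day4 level was 2.20-fold above ES, a change that was 0.10 on the log2 scale without normalization. Olig2 rose from 7.87 on Day3 to 11.47 on Day4 and fell to 7.35 on Day7. Neurog2, a proneural factor, went from 6.02 to 10.37 and then 7.06, and Nkx6-1, a ventral progenitor factor that some MNs keep, from 8.60 to 12.73 and then 14.31. These 3 of 5 rose from Day3 to Day4, against 3.62% of all genes. Isl1, Lhx3 and Lhx4 rose in the same step. Onecut1 and Onecut2, which lie upstream of Isl1 in MNs, rose from Day4 to Day7, Onecut2 from 10.47 to 14.66. Mnx1 was not analysed here, since no probe matched it. All 4 cholinergic genes, which equip MNs to release and clear acetylcholine, rose from Day4 to Day7 with a median change of 6.04. Over that step 18.1% of all genes rose, and the median change of all genes was -0.12. Among the cholinergic genes, Chat, the acetylcholine-synthesizing enzyme, went from 6.09 to 12.21, and Slc18a3, the vesicular transporter of acetylcholine, from 9.58 to 15.54.

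Markers of other cells that use the same factors were read beside these results. Of 5 pluripotency markers 4 fell from ES to Day7, Pou5f1 from 12.39 to 8.22, against 24.4% of all genes that fell. The 5 general neuronal markers all rose from Day4 to Day7, against 18.1% of all genes, with a median change of 5.95 against -0.12. The levels of these 5 on Day7 ran from 13.57 to 17.22. Of the floor plate markers, Foxa2 rose from 11.52 to 14.12 over the same step, and Shh reached 12.71 from a value not well above background on Day4. Among V0, V1 and dorsal interneuron markers, which bear on Lhx1 and Lhx5, 6 matched. Of the 5 with a value, 3 rose from Day4 to Day7, against 18.1% of all genes. Evx1 went from 5.02 to 6.11, Foxd3 from 4.72 to 6.09 and Bhlhe22 from 5.12 to 6.33, each past 2-fold in 4 of 5 scalings, while Lbx1 fell, in 3 of 5 scalings, and En1 was well above background on no array. The mean level of these 6 genes was 4.75 on Day4 and 5.17 on Day7. It includes values not well above background, since 5 of the 6 were above it on Day4 and 4 on Day7. From ES to Day7 none (0) of the 5 with a value rose and 2 fell, against 24.8% and 24.4% of all genes. Foxd3 fell 19.5-fold over that span, from 10.37 in ES cells.

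Markers of the other tissues known to express Isl1 were read in the same way. Of the sensory neuron markers, Pou4f1 changed by -0.23 from Day4 to Day7, and by 1.08 without normalization between arrays, and Prdm12 fell at least 7.74-fold. All 4 heart markers fell over that step, against 18.1% of all genes, Actc1 from 11.51 to 8.47, although Tnnt2 changed by 0.05 without normalization between arrays. Of 3 pancreas markers, Pdx1 and Gcg were well above background on Day2 alone and Ins2 on all 5 arrays, at 8.24 on Day4 and 8.49 on Day7. Of the pituitary markers Cga rose at least 2.74-fold while Pou1f1 was above background on no array. The part of V2 cells, floor plate cells and the rise of neurons as a whole in the levels of the LIM factors was not tested.

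The 250 bases before an annotated transcript start are shown for Isl1, Isl2, Lhx3 and Lhx4, which rose in the last step, and for Lhx1, which fell, so that members that moved together can be set beside one that did not. Sequences are from RefSeq, mouse build GRCm38.p6, written 5′ to 3′ on the strand of the gene, with CG dinucleotides in capitals. The windows are chr13:116309689-116309938 on the minus strand for Isl1, chr9:55540899-55541148 on the plus strand for Isl2, chr2:26208250-26208499 on the minus strand for Lhx3, chr1:155742028-155742277 on the minus strand for Lhx4 and chr11:84525535-84525784 on the minus strand for Lhx1. Those of Isl1, Lhx3 and Lhx1 adjoin the end of the gene span given above, while those of Isl2 and Lhx4 precede a start inside it, and whether these starts were in use in the cells was not analysed here.
Isl1: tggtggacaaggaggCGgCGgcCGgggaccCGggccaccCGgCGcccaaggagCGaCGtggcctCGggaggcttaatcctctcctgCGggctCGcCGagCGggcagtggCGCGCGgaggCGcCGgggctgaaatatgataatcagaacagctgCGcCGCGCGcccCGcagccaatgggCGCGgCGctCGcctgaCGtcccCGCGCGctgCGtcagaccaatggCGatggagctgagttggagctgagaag
Isl2: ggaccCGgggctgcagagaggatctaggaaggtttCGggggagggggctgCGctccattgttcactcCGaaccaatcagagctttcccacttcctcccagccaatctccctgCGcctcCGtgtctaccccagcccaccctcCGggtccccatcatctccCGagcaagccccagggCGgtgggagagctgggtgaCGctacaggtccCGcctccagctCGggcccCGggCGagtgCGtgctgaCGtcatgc
Lhx3: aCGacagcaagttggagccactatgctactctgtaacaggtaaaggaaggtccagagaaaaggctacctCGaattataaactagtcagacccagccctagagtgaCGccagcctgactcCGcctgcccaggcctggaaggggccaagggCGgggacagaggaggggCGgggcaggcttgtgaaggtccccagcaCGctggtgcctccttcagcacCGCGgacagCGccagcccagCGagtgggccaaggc
Lhx4: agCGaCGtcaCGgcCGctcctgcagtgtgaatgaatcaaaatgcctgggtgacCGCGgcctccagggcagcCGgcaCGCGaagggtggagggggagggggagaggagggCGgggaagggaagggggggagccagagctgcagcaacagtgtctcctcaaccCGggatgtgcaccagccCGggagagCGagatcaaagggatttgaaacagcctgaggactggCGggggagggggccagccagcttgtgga
Lhx1: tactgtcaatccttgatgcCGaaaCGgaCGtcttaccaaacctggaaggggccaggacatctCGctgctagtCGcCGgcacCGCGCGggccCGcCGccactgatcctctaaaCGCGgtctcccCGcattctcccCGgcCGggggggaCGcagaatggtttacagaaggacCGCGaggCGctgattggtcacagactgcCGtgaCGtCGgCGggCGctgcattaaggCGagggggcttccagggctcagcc

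The windows differ in CG content. Isl1 holds 33 CG dinucleotides, a number reached by 4.03% of 32851 mouse windows of this length, whose median is 6. Lhx1, which fell, holds 26 (9.59% of windows), Isl2 16 (25.4%), Lhx4 14 (29.4%) and Lhx3 11 (35.6%). A second annotated Lhx3 start, whose window is chr2:26206576-26206825, has 22 (14.8%). ATTA, the core letters that many homeodomain proteins bind, was searched on both strands. It is found 2 times in the Isl1 window, 1 time each in those of Lhx3 and Lhx1 and in neither of the others, and 54.9% of all windows hold it. The E-box letters CANNTG, bound by proneural factors, read the same on both strands, occur 1 time in the Isl1 window and in none of the other 4 shown, and are in 66.2% of all windows. In the Isl1 window ATTA and CANNTG do not overlap. The window of the second Lhx3 start holds CANNTG 1 time and ATTA 0 times. Such matches describe letters in these windows only. For Lhx5 no window is shown.

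The genes whose time courses were most like those of 3 members were found among 13463 genes well above background on all 5 arrays, by the root mean square difference (RMS) of log2 levels centred on each gene's own mean. Nearest to Isl1 were Tagln3, a neuronal calponin family protein (RMS 0.53), Hey1, a Notch-responsive repressor (0.65), Id4, an inhibitor of basic helix-loop-helix factors (0.66), Sparcl1 (0.71) and Scg3, a secretory granule protein (0.75). Tagln3 went from 9.48 on Day4 to 14.83 on Day7. Isl2 ranked 53 in likeness to Isl1 (1.13) and Lhx3 434 (1.78). The rank depends on the gene it is taken from: in likeness to Lhx3, Isl1 ranked 10986 at the same RMS, beside Lhx1 at 10991 (1.78). Nearest to Lhx3 were Epha4, an ephrin receptor (0.55), Fjx1 (0.56), Fabp5, a fatty acid carrier (0.59), Slc1a3, a glutamate transporter (0.59), and Nhlrc1 (0.61). Nearest to Lhx1 were Retreg3 (0.08), Orai1, a calcium channel subunit (0.09), Fut10 (0.09), Slf2 (0.10) and Mta1 (0.11), and Ldb1, which is also highest on Day4 on this scale, ranked 983 (0.41). With 5 points per gene these are descriptions of shape, and the points share normalization and slides.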

How the data were processed

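Total RNA of the 5 samples was hybridised to Agilent one-colour mouse arrays. The authors deposited the scanner output, per the file headers of Agilent Feature Extraction 10.5.1, which holds a background-subtracted intensity for each spot with flags for outliers and for signal well above background. A table of log2 values was deposited too, and for 99.5% to 99.6% of the probes on each array these lay within 0.01 of the log2 spot median minus the 75th percentile of that array. Control spots and outlier spots were dropped, the log2 intensity was averaged over the spots of a probe, and arrays were quantile-normalized with limma 3.58.1 under R 4.3.3, since a figure legend of the study names quantile analysis. For 4 of the 5 arrays the slide position in the header differs from that in the name of the scanner output. The deposited assignment to samples was kept. The match to the deposited log2 columns given above cannot check it, since those values follow from the same scanner output. Which position is right was not tested. Further steps ran in Python 3.11.15. Probe accessions were matched to RefSeq symbols (GRCm38.p6): 26294 probes named 19893 genes. The brightest probe of 5337 genes with several stood for the gene. A probe counted as well above background when at least 0.5 of its spots carried the flag. Genes detected on neither array of a step had no value. Genes whose brighter side did not exceed the bound entered counts and medians as 0. The members, gene lists and tests were chosen with earlier results of these data known. The genes named are all members, list genes past 2-fold in the step described (up to 4 a list) and the 5 most alike in time course, and others named were chosen after their values were seen. Precision is limited by 1 array per time point. The steps were tested on simulated data. Some of the markers tested are not reported here.

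Alternatives were a shift to the 75th percentile, no normalization, normexp background correction (offset 50, on median spot signals), the deposited log2 values, the gIsPosAndSignif flag for detection, no filter on dim probes, probes detected on both arrays, the mean over probes, leaving out an array and thresholds of 1.5-fold and 4-fold.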

Additional observations from a re-analysis of the deposited data

Results flagged for a closer look

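On the Day2 array 66.7% of the 96 probes for ERCC spike-in transcripts were well above background, against 4.17% to 9.38% on the other 4 arrays. These control probes entered no comparison, and the labels used here name no spike-in. The negative control spots of the Day2 array had a median raw signal of 37, within the range of 31.5 to 70 on the other 4. Lhx4 was well above background on Day2, between the ES and Day3 arrays where it was not. Whether the Lhx4 reading on Day2 shares its source with the ERCC readings was not tested.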

How the results depend on the processing

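Of the summary values recomputed under each alternative, 235 stayed within 1.5 times and 37 did not, and of the single changes of members over the other steps 382 stayed within 1.5-fold, and 56 moved further. In 1 more case a change past 2-fold turned in sign. From ES to Day2 the members that fell went from 2 to 0 after a shift to the 75th percentile, with the deposited values, without normalization, after normexp and at a 4-fold threshold, and those that rose went from 0 to 2 in the first 3 of these and to 1 with the other flag, with no filter and at 1.5-fold. The Lhx5 change of -1.75 in that step became 0.033 without normalization. Of all genes, 1965 rose from ES to Day2, against 3831 after the shift and 4545 without normalization. From Day2 to Day3, 1420 genes fell, against 3119 and 7216. The members that fell over that step went from 1 to 3 after the shift, with the deposited values and at 1.5-fold, and to 5 without normalization. From Day4 to Day7 those that fell went from 1 to 0 without normalization and at 4-fold and to 2 at 1.5-fold. From ES to Day7 Isl2 changed by 4.55 after normexp, against 5.38. Lhx4 changed by at least 4.42 after normexp by at least 8.60 with the other flag and by 8.60 with no filter, against at least 6.47. Lmo4 changed by -0.42 after the shift and with the deposited values, against 0.20. The other cofactors that rose went from 2 to 1 after the shift, with the deposited values, without normalization and after normexp. Among probes detected on both arrays, 1 LIM-only gene and 2 onset genes rose, against 2 and 4. Over all genes from Day4 to Day7, 8383 rose and 536 fell without normalization, 4993 fell at 1.5-fold, and 1409 rose and 701 fell at 4-fold, against 2910 and 2917. From ES to Day7 at 4-fold, 2043 rose and 1326 fell, against 3928 and 3867. The cause of these differences was not tested.

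The shift to the 75th percentile moved the median of all genes to -0.35 from ES to Day7 and to -0.25 from Day4 to Day7, and without normalization it was 0.27, -0.81, -0.48 and 1.06 over the 4 steps in order. Of the genes past 2-fold from ES to Day2, 48.7% were higher in the main setting, 74.9% after the shift, 74.8% with the values as deposited and 85.4% with no normalization, and over the next step, to Day3, the same settings gave 62.6%, 25.5%, 25.5% and 3.48%. From Day3 to Day4 the share was 42.6%, against 20.1% without normalization and 53.0% after normexp, and from Day4 to Day7 it was 49.9%, against 94.0% without normalization. No paired analysis was possible because the design has 1 array per time point, and for the same reason leaving out replicates could not be run and the slide could not be fitted as a block. Signal over background limits the values of Lhx4 on ES and Day3 and of Lhx5 on Day3.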
